A study of Mus musculus with 12 samples.

Results

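Pamr1, Aard, Nsg2 and Ngfr are 4 of the 23378 genes in a table of RNA sequencing counts from mouse macula densa cells and their control cells. They were picked because they stood much higher in macula densa than in control cells, so that difference is described below without a test. Macula densa cells are specialised epithelial cells where the thick ascending limb of the loop of Henle ends and touches its own glomerulus. They sense luminal salt through the cotransporter encoded by Slc12a1 and adjust glomerular filtration and renin release, in part through neuronal nitric oxide synthase (Nos1) and cyclooxygenase 2 (Ptgs2). Pamr1 encodes a secreted protein with CUB, EGF-like and trypsin-like domains that is named for muscle regeneration. Nsg2 encodes a small membrane protein of endosomes and secretory vesicles in neurons. Ngfr encodes the p75 neurotrophin receptor, a death-domain receptor of the TNF receptor family that binds all neurotrophins and works alone or beside the Trk receptor kinases. Aard encodes a protein named for its alanine- and arginine-rich domain.

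The 12 libraries came from kidney cortex of C57BL/6 mice of the genetic model nNosCreERT2-mTmG, which all groups shared. In it the Nos1 gene drives an inducible recombinase, recombined cells turn from red tdTomato to green GFP, and the green cells were collected as macula densa. Control cells were those with the brightest red signal, taken to stand for distal tubule and collecting duct. Macula densa cells gave 2 libraries from mice on control diet and 2 from mice on low salt diet with the ACE inhibitor enalapril (150 mg/L in the water), and control cells gave 4 on each diet. Both treatments lasted 14 days, and the low salt diet and enalapril, given together, cannot be told apart. The sort rests on Nos1 transcription, so any other Nos1-expressing cell of the cortex would also turn green. The age and sex of the mice, and whether animals were pooled, are not given in the sources used here. The labels do not say that replicates came from separate animals, and p-values then measure only the spread between these libraries.

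Total counts ranged from 4259020 to 14856542 per library, and the gene Gm42418, a locus over ribosomal RNA sequence, held 53.5% to 65.0% of them. Levels are given in CPM, counts per library total after scaling by trimmed means of M values (TMM), and 3 counts were worth 0.231 to 0.734 CPM. Floors and intervals on counts cover counting error only: reads carried no molecular identifiers and need not be independent molecules. Nos1 measured 100 to 232 CPM in the 4 macula densa libraries and 0.109 to 0.735 CPM in the 8 control-cell libraries. Slc12a1 measured 1769 to 2026 CPM in macula densa and 41.8 to 429.7 CPM in control cells. Nos1 drives the sort label, and Slc12a1 is shared with the thick ascending limb. Ptgs2 measured 14.3 to 175 CPM in macula densa and 0 to 1.47 CPM in control cells. Oxtr, also listed as a macula densa marker, measured 0 to 0.103 and 0 to 0.840 CPM. The thick ascending limb marker Umod was present in both populations, at 109 to 528 CPM in macula densa and 35.4 to 418 CPM in control cells. The control cells also held RNA outside their label: 5 podocyte markers summed to 38.6 to 1252 CPM and 5 endothelial markers to 35.4 to 1144 CPM. Macula densa libraries held such RNA too: 5 proximal tubule markers summed to 26.8 to 115 CPM there. In control cells these summed to 8.19 to 57.1 CPM. In these bulk libraries a change in the share of a cell type and a change in RNA per cell cannot be told apart.

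Each of the 4 genes was higher in every macula densa library than in any control-cell library. Of 14180 genes tested, 4.31% had this property, but the genes were chosen on this very contrast. They differed in how the control cells read: Pamr1 and Nsg2 were low there but mostly detected, Ngfr was at the edge of detection, and Aard was at 0 in all 8 libraries. Counts in the control-cell libraries alone would have kept Pamr1 and Nsg2 past the filter on low counts. Aard and Ngfr passed it through the macula densa libraries, Ngfr only through those on low salt with enalapril.

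**Figure D1:**
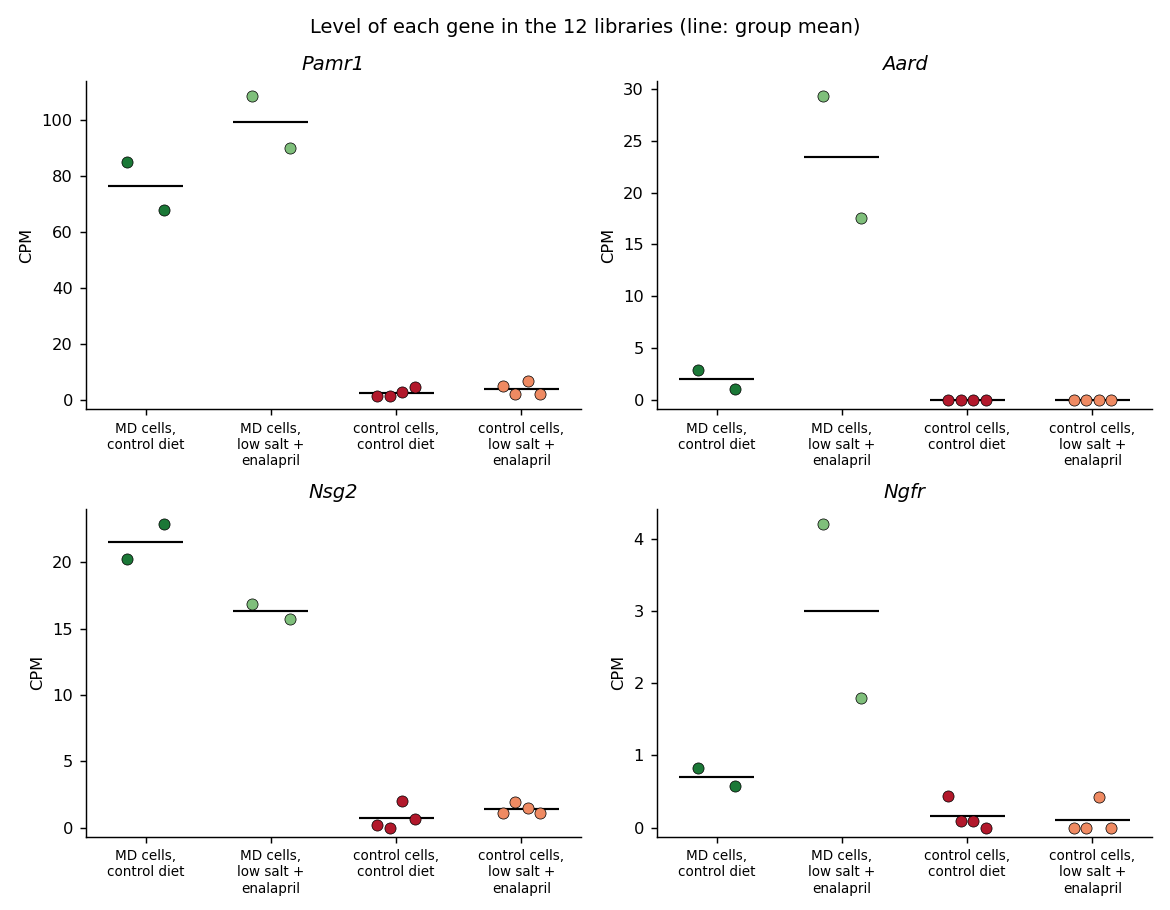
Level of each gene in CPM (vertical axes that differ between panels) in the 12 libraries; each point is a library and each line a group mean. All 4 macula densa libraries lie above all 8 control-cell libraries for each gene, and Aard lies at 0 in every control-cell library.

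Pamr1 was the most abundant of the 4 genes in CPM. The gene (ENSMUSG00000027188.8) lies on chromosome 2 from 102550012 to 102643041 on the plus strand of GRCm38, with 13 exon blocks and no overlapping annotated gene. It measured 84.7 and 67.7 CPM in the macula densa libraries on control diet, from 826 and 831 counts. On low salt with enalapril it measured 108 and 90.1 CPM, from 566 and 549 counts. Both libraries on low salt lay above both on control diet.

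Control cells held Pamr1 at a few percent of that level. On control diet the 4 libraries measured 1.2, 1.41, 2.76 and 4.44 CPM, and on low salt with enalapril 5.0, 2.20, 6.72 and 2.14 CPM. The diets overlapped, and every library held between 9 and 65 counts, so Pamr1 was detected in all of them. The group means were 76.2 ± 12.1 CPM (SD, n = 2) in macula densa and 2.45 ± 1.5 CPM (SD, n = 4) in control cells on control diet. On low salt with enalapril they were 99.2 ± 13.0 CPM (SD, n = 2) and 4.01 ± 2.24 CPM (SD, n = 4). The log2 ratio of macula densa to control cells was 4.79, with a standard error (SE) of 0.35, averaged over the diets.

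Nsg2 had the steadiest level among macula densa libraries. The gene (ENSMUSG00000020297.10) lies on chromosome 11 from 32000463 to 32059202 on the plus strand, with 6 exon blocks and no overlapping annotated gene. Its macula densa libraries measured 20.2 and 22.9 CPM on control diet, from 197 and 281 counts, and 16.9 and 15.7 CPM on low salt with enalapril, from 88 and 96 counts. It was the only one of the 4 genes whose libraries on low salt with enalapril both lay below those on control diet. In control cells it measured 0.219, 0, 2.0 and 0.620 CPM on control diet and 1.08, 1.96, 1.47 and 1.12 CPM on low salt with enalapril. Replicates 1 and 2 on control diet, with 2 and 0 counts, were at or under 3 counts, and the other 6 libraries held 6 to 21 counts. Group means were 21.5 ± 1.90 and 16.3 ± 0.785 CPM (SD, n = 2) in macula densa and 0.71 ± 0.898 and 1.41 ± 0.409 CPM (SD, n = 4) in control cells, each on control diet and then on low salt with enalapril. The log2 ratio averaged over the diets was 4.24 (SE 0.48.)

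Because Nsg2 is best known from neurons, its start regions were searched for part of RE1, the element bound by REST, a factor that represses neuronal genes in other cells. RefSeq on GRCm38.p6 gives Nsg2 starts at 32000419 and 32000700, and windows ran from 250 bases before to 50 bases after each. The letters TTCAGCACC occurred once, on the plus strand from 32000499 to 32000507, which is 80 bases after the first start and 201 bases before the second. They occur on either strand in 0.371% of 32851 promoter windows of this length. The stretch of 30 bases around the match, chr11:32000489-32000518 on the plus strand, is shown because it is the match found for these genes, with the matched letters in capitals.
Nsg2 stretch: ggctgcttttTTCAGCACCacgctctggct
The match is a description of the sequence, and no data here show a factor bound to it. The letters GCCNNNGGC (AP-2), TCAAGGTCA (ESRR), ATGCAAAT (octamer) and TGACGTCA (cyclic AMP response element) were on neither strand of either Nsg2 window or of the Ngfr window. They occur in 16.6%, 0.423%, 1.74% and 1.79% of all windows, in the same order. The HNF1 letters GTTAAT, held by 7.10% of all windows, were also not found in them. Nor was a TATA box (TATAAA), held by 13.6%. The Ngfr window had a GC content of 71.7% against 47.0% and 56.0% for the Nsg2 windows and a median of 52.7% over all windows. Promoter windows of Pamr1 and Aard were not analysed here.

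Aard had the widest difference between the diets. The gene (ENSMUSG00000068522.4) lies on chromosome 15 from 52040107 to 52045722 on the plus strand, with 2 exon blocks, 1 transcript and no overlapping annotated gene. In macula densa cells it measured 2.87 and 1.06 CPM on control diet, from 28 and 13 counts, and 29.3 and 17.6 CPM on low salt with enalapril, from 153 and 107 counts. The lower of the low salt libraries was above the higher of the control diet libraries. The means were 1.97 ± 1.28 and 23.4 ± 8.31 CPM (SD, n = 2). All 8 control-cell libraries held 0 counts. Set against a floor of 3 counts in each control-cell library, Aard was at least 6.52-fold higher in macula densa on control diet and at least 49.3-fold higher on low salt with enalapril.

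Ngfr was the scarcest of the 4 genes. The gene (ENSMUSG00000000120.6) lies on chromosome 11 from 95568818 to 95587735 on the minus strand, with 6 exon blocks, 1 transcript and no overlapping annotated gene. Macula densa libraries held 8 and 7 counts on control diet and 22 and 11 counts on low salt with enalapril, which is 0.821, 0.570, 4.21 and 1.80 CPM. Control-cell libraries held 4, 1, 1 and 0 counts on control diet and 0, 0, 2 and 0 counts on low salt with enalapril. Only 1 of the 8 control-cell libraries, replicate 1 on control diet, was above 3 counts. Summed over libraries, macula densa held 15 counts on control diet and 33 on low salt with enalapril, and control cells held 6 and 2. The means were 0.695 ± 0.177 and 3.01 ± 1.70 CPM (SD, n = 2) in macula densa and 0.157 ± 0.192 and 0.105 ± 0.210 CPM (SD, n = 4) in control cells.

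The labels carry a number in the sample description that 1 macula densa and 1 control-cell library share in 4 cases, 2 on each diet. Pamr1 was 60.1-fold and 24.5-fold higher in the macula densa library than in the control-cell library of the same number on control diet, and 49.2-fold and 42.2-fold on low salt with enalapril. For Nsg2 the shared numbers on control diet gave at least 71.7-fold, where the control-cell library held 0 counts, and 11.4-fold. Those on low salt with enalapril gave 8.61-fold and 14.1-fold. For Aard the 4 numbers gave at least 10.2-fold, 3.71-fold, 39.9-fold and 57.5-fold, where both values on low salt with enalapril lay above both on control diet. The choice of the genes fixed the direction of these ratios.

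Levels can be set side by side between genes only per length, and were divided by the kilobases of annotated exon. On control diet Pamr1 was first in macula densa at 12.6 ± 1.99 CPM per kilobase (SD, n = 2), then Nsg2 at 5.18 ± 0.456, Aard at 1.46 ± 0.951 and Ngfr at 0.202 ± 0.0514. No libraries of neighbouring genes in that order overlapped. On low salt with enalapril Aard, at 17.4 ± 6.17 CPM per kilobase (SD, n = 2), and Pamr1, at 16.4 ± 2.15, overlapped between libraries. Nsg2 followed at 3.92 ± 0.189 and Ngfr at 0.873 ± 0.495. On that diet the libraries of Aard and Pamr1 overlapped those of Nos1, which measured 15.9 ± 7.01 CPM per kilobase, and lay far below Slc12a1 at 337 ± 16.8.

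**Figure D2:**
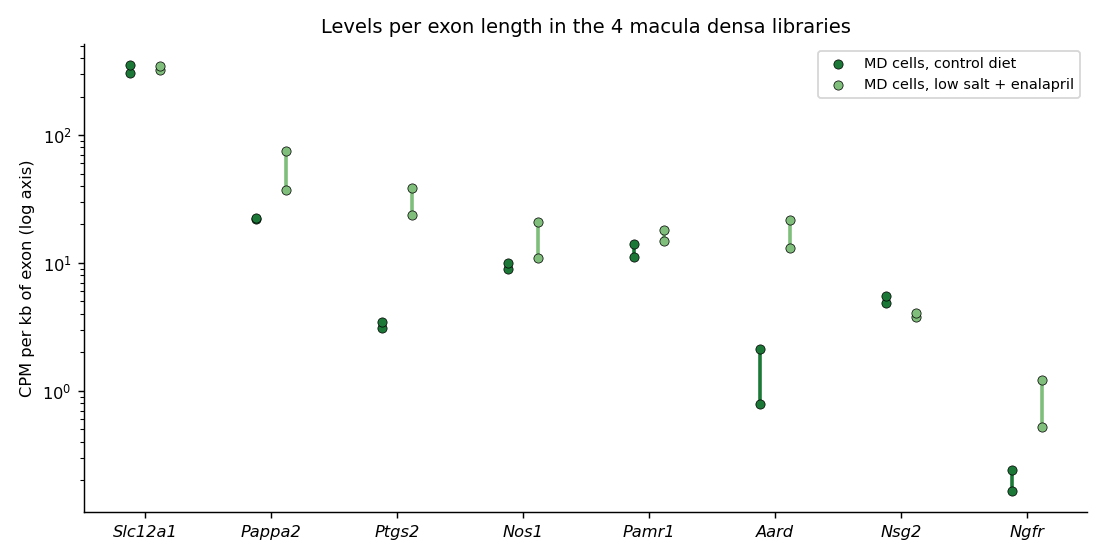
CPM per kilobase of annotated exon (log axis) in the 4 macula densa libraries for the 4 genes and 4 macula densa markers; points are libraries and lines join the libraries of a diet (dark green, control diet; light green, low salt with enalapril). Aard lies below Nsg2 on control diet (1.46 against 5.18 on average) and beside Pamr1 on low salt with enalapril (17.4 against 16.4).

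The diet comparison within macula densa cells did not enter the choice of the genes, although it uses libraries that did. The 2 diets did not overlap for any of the 4 genes, with Pamr1, Aard and Ngfr higher and Nsg2 lower on low salt with enalapril. Ngfr passed the filter on low counts only through its libraries on low salt with enalapril, so its direction here was in part set by the filter. With 2 libraries against 2, the diets did not overlap for 40.6% of all genes tested (18.8% higher and 21.8% lower), so a lack of overlap is common. The edgeR quasi-likelihood test called 0 of 14180 genes (0%) at an adjusted p of 0.05, while 1594 genes (11.2%) had an unadjusted p under 0.05. DESeq2 called 93 genes and limma voom 4.

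Aard had a log2 ratio of 3.58 (SE 0.62, 95% interval 2.09 to 5.07), which is 12-fold. Its unadjusted p was 0.000978 and its edgeR adjusted p 0.218, and 59 genes had a smaller p. The ratio of summed counts corrected for depth was 12.3, with a counting interval of 8.85 to 17.6. The Aard estimate stayed above 0 under each setting, while its call differed between fits. When edgeR was fitted to the 4 macula densa libraries alone, the log2 ratio was 3.62 (SE 0.45) and the adjusted p 0.00174, in a fit that called 105 of 11321 genes (0.927%). The DESeq2 Wald test gave Aard 3.61 with an adjusted p of 0.00227, and limma voom with sample weights gave 3.75 with an adjusted p of 0.00866. Leaving out each library in turn gave 2.94 (without macula densa replicate 2 on control diet) to 4.40 (without replicate 1 on that diet), with edgeR adjusted p from 0.126 to 0.515.

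**Figure D3:**
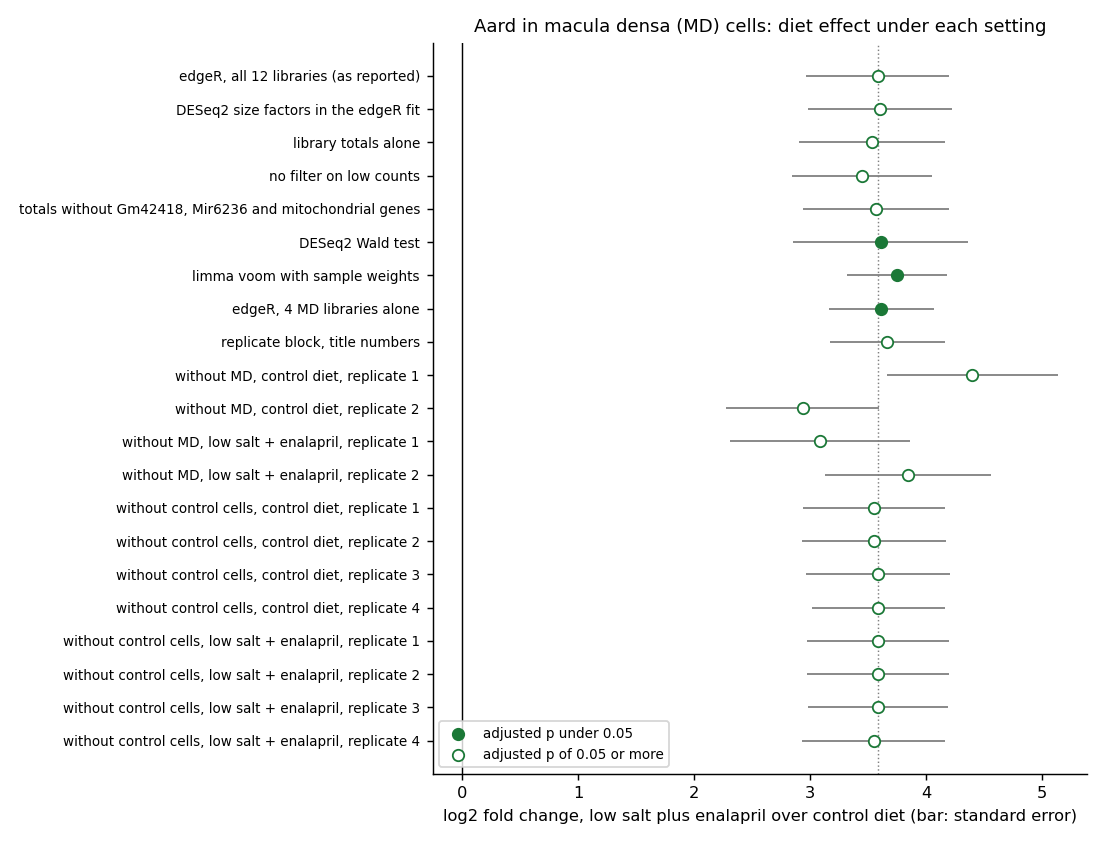
Log2 fold change of Aard in macula densa cells, low salt with enalapril over control diet, under each setting (points; bars are standard errors); filled points had an adjusted p under 0.05. Estimates run from 2.94 to 4.40, and 3 settings have filled points.

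The other 3 genes did not pass under any of these settings. Pamr1 had a log2 ratio of 0.38 (SE 0.54, 95% interval -0.80 to 1.56) with an edgeR adjusted p of 0.831. Nsg2 had -0.40 (SE 0.71, 95% interval -1.94 to 1.14) with an edgeR adjusted p of 0.869. For Pamr1 and Nsg2 the intervals leave room for a change of about the size seen in their means in either direction. Ngfr had a log2 ratio of 2.09 (SE 1.18, 95% interval -0.46 to 4.65) with an edgeR adjusted p of 0.540. Without macula densa replicate 1 on low salt with enalapril the log2 ratio of Ngfr was 1.29. Its ratio of summed counts was 4.28, with a counting interval of 2.26 to 8.48.

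Markers of other cells, and some of the thick ascending limb, also differed between the macula densa libraries of the diets. Podocyte markers summed to 14.9 and 138 CPM on control diet and to 4.43 and 13.2 CPM on low salt with enalapril, and endothelial markers to 17.4 and 131 against 9.19 and 11.1 CPM. All 7 thick ascending limb markers together summed to 3313 and 4188 against 2321 and 2425 CPM. Within that sum Egf measured 916 and 1365 against 152 and 134 CPM. Umod, the gene of the urinary protein uromodulin, measured 399 and 528 against 165 and 109 CPM. Kcnj1 and Ppp1r1a were lower too. Slc12a1, the largest part on low salt and also a macula densa marker, measured 1769 and 2026 against 1875 and 2012 CPM. It overlapped between the diets, as did Cldn10 and Cldn16. Their part in the diet differences was not tested.

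Nos1, the gene that marks the sorted cells, measured 100 and 111 CPM on control diet and 232 and 122 CPM on low salt with enalapril in macula densa, so the genes were also expressed per 100 CPM of Nos1. Aard stood at 2.86 and 0.956 on control diet and at 12.6 and 14.4 on low salt with enalapril, still without overlap. Ngfr stood at 0.817 and 0.515 against 1.82 and 1.48, also without overlap. Nsg2 stood at 20.1 and 20.7 against 7.26 and 13.0, without overlap. Nos1 itself was higher in both low salt libraries, so dividing by it lowers every gene on that diet, and the separation of Nsg2 is in part set by this. Pamr1 stood at 84.4 and 61.1 against 46.7 and 74.1, and for it the diets overlapped. The share of all genes without overlap after this division was not computed.

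In control cells the diet comparison could be made for Pamr1 and Nsg2 only. Pamr1 had a log2 ratio of 0.70 (SE 0.44, 95% interval -0.26 to 1.67) with an edgeR adjusted p of 0.933. Nsg2 had 0.88 (SE 0.69, 95% interval -0.63 to 2.39) with an edgeR adjusted p of 0.961. Without control-cell replicate 3 on control diet the log2 ratio of Nsg2 was 2.23. The libraries of the diets overlapped for both genes. Among all genes 1 (0.00705%) was called, 914 (6.45%) had an unadjusted p under 0.05 and 4.2% did not overlap. Aard was at 0 counts and Ngfr at 0 to 4 counts in these libraries, so no fold is given for them.

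The test of whether the diet effect differed between the cell populations called 0 of 14180 genes (0%) with edgeR, with 997 genes (7.03%) at an unadjusted p under 0.05, and 13 genes with DESeq2. For Pamr1 the difference was -0.32 on the log2 scale (SE 0.70) with an edgeR adjusted p of 0.950. With a replicate block by description number over 8 libraries it turned to 0.29. For Nsg2 it was -1.28 (SE 0.99) with an edgeR adjusted p of 0.825, and -2.63 without control-cell replicate 3 on control diet.

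Among the 8 control-cell libraries Pamr1 moved with Slc12a1 and Umod, markers of the thick ascending limb. Only these and Nos1 were tried. Its log2 CPM followed that of Slc12a1 with a Pearson r of 0.914 (exact permutation p = 0.000719, two-sided, 0.00432 after Benjamini-Hochberg adjustment over 6 relations) and a Spearman rho of 0.929 (exact p = 0.00223, adjusted 0.0134). Without the 2 libraries farthest from the median of Slc12a1, r was 0.864 over 6 libraries. With Umod, r was 0.902 (exact p = 0.00501, adjusted 0.0150), rho was 0.905 (exact p = 0.00456, adjusted 0.0137), and r was 0.982 without the 2 farthest libraries. With Nos1, whose counts in control cells were few, r was 0.413 (exact p = 0.331, adjusted 0.331) and rho 0.357 (exact p = 0.389, adjusted 0.584). The libraries share scaling and the mix of cells in the red sort. The podocyte marker Podxl ran the other way, at 642, 520, 352 and 21.8 CPM on control diet in the order of replicates. On low salt with enalapril it measured 79.9, 524, 100 and 429 CPM. Whether the relation of Pamr1 is particular to the thick ascending limb was not tested. Since 4 libraries a diet were too few for a correlation within a diet, none is given.

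For Nsg2 no relation passed after adjustment. Its r with Slc12a1 was 0.761 (exact permutation p = 0.0325, adjusted 0.0650) and rho 0.524 (exact p = 0.197, adjusted 0.393). That r rested on 2 control-diet libraries and was -0.16 without them. With Umod r was 0.451, or 0.649 without the 2 libraries farthest from the median of Umod, and rho was 0.238. With Nos1 r was 0.428 and rho 0.0714. The adjusted exact p of r was 0.331 for both, and those of rho were 0.699 and 0.882.

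**Figure D4:**
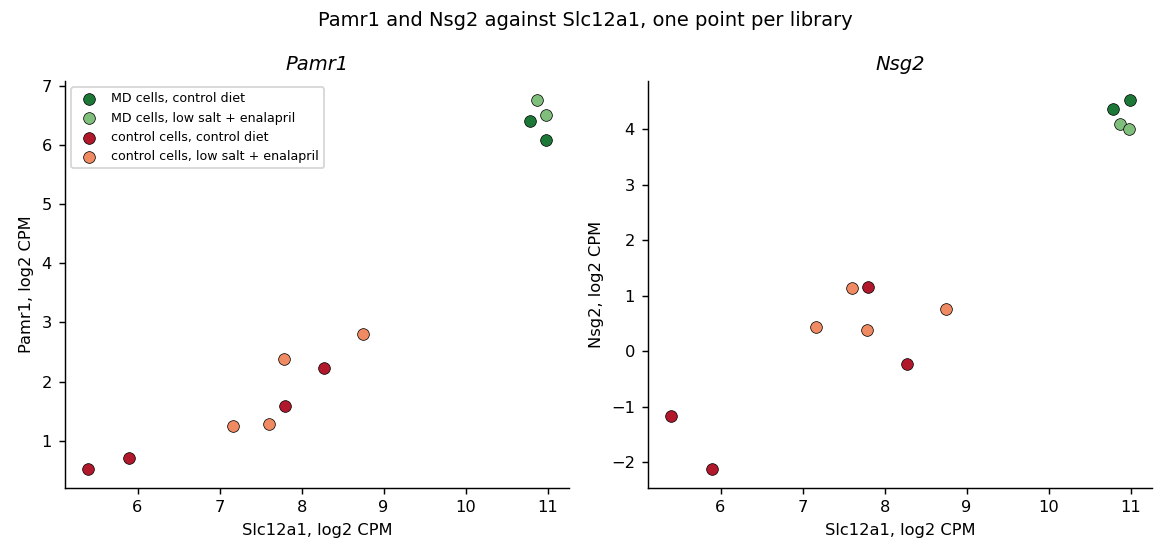
Log2 CPM of Pamr1 (left) and Nsg2 (right) against log2 CPM of Slc12a1, 1 point per library, coloured by cell population and diet. Across the 8 control-cell libraries Pamr1 follows Slc12a1 (r = 0.914), while for Nsg2 2 control-diet libraries at the lower left set the slope.

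Relative to Slc12a1, only Pamr1 and Aard of the 4 genes still separated the cell populations. The genes were picked on this contrast, and the share of all genes that separate after this division was not computed. Per 100 CPM of Slc12a1, Pamr1 measured 3.34 to 5.78 in the 4 macula densa libraries and 1.14 to 2.88 in the 8 control-cell libraries, which did not overlap. Nsg2 measured 0.783 to 1.14 in macula densa and 0 to 1.01 in control cells, which overlapped. Ngfr, from few counts, measured 0.0281 to 0.225 in macula densa and 0 to 1.05 in control cells, which also overlapped. Aard measured 0.0523 to 1.56 in macula densa and 0 in all control-cell libraries, so it separates whatever gene it is divided by. Slc12a1 is a gene of macula densa and thick ascending limb alike.

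The genes with the most similar profiles over the 12 libraries were found by the root mean square difference of centred log2 CPM. For Pamr1 these were Eprn at 0.649, Vash2 at 0.652, 5330417C22Rik at 0.682, Slc12a1 at 0.740 and Sgms2 at 0.748, against a median of 2.45 over all genes. For Nsg2 they were Slc12a1 at 0.691, Ndst4 at 0.701, Thsd4 at 0.725, Adgrf1 at 0.768 and Irx1 at 0.774, against a median of 2.25. Some genes recur in these lists, with Vash2 close to Pamr1 and Aard and Slc12a1 close to Pamr1 and Nsg2; Ndst4 recurs for Nsg2 and Aard. Aard had Frem1 at 0.733, Slc6a7 at 0.884, Vash2 at 0.933, Ksr2 at 1.01 and Ndst4 at 1.02, against a median of 2.6. Ngfr had Etv1 at 0.587, Itprid2 at 0.595, Efna2 at 0.598, Gm19335 at 0.603 and Hoxc4 at 0.622, against a median of 1.46 that its low counts keep small. Among the 4 genes themselves, Pamr1 ranked 7 for Nsg2 and 9 for Aard, while it ranked 7858 for Ngfr. All 4 genes were picked on the contrast that dominates these profiles, so closeness among them was in large part set by that choice.

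Ngfr works in a pathway of neurotrophin ligands, Trk kinases, sortilin coreceptors and intracellular adaptors, and the other genes of that pathway were read in the same comparison of macula densa with control cells, averaged over the diets. Among all genes this comparison called 3027 (21.3%) with edgeR, 1061 higher (7.48%) and 1966 lower (13.9%). Scaling by totals alone turned the split to 1827 higher and 1450 lower and shifted the log2 median over all genes from -0.06 to 0.14. Of 33 pathway genes 26 were tested, and 4 rose and 2 fell, a share of 23.1% with a median log2 ratio of -0.16. That share was close to the background. Leaving out macula densa replicate 2 on control diet, or control-cell replicate 2 on either diet, left 3 calls in place of 6.

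The ligand genes Bdnf, Ntf5 and Ntf3 were scarce in both populations. Bdnf held 0 to 19 counts in macula densa libraries and 0 to 13 in control cells, with a log2 ratio of 0.40, SE 1.24 and an edgeR adjusted p of 0.859. Ntf5, which encodes neurotrophin-4, measured 0.570 to 2.13 CPM in macula densa and 0.190 to 0.979 CPM in control cells and was not tested. Ntf3, neurotrophin-3, held at most 2 counts in macula densa and was at least 2.25-fold lower there (edgeR adjusted p = 0.0227). It passed the filter on low counts only through control cells, which in part set that direction.

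Of the receptor kinases, Ntrk2 measured 0.407 to 2.30 CPM in macula densa against 0.826 to 2.73 CPM in control cells (log2 ratio -0.76, SE 0.39, edgeR adjusted p = 0.192). Ntrk3 measured 1.48 to 7.18 CPM against 1.03 to 18.1 CPM (log2 ratio -1.55, SE 0.65, edgeR adjusted p = 0.112). The coreceptor Sort1, sortilin, was the most abundant of the named receptors in CPM at a mean of 46.4 in macula densa and 36.2 in control cells (log2 ratio 0.36, SE 0.25, edgeR adjusted p = 0.342).

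The genes that rose were adaptors and a protease subunit. Bex1 and Ndn encode proteins that bind the Ngfr tail, and they rose by log2 ratios of 2.19 (SE 0.47, edgeR adjusted p = 0.00734) and 1.82 (SE 0.46, edgeR adjusted p = 0.0162). Bex1 was at 5.41 to 12.1 CPM in macula densa libraries and at 0 to 3.69 CPM in control-cell libraries. Ndn, at 1.15 to 3.39 against 0.210 to 1.32 CPM, overlapped between the populations. Maged1, an adaptor of the same receptor, rose by 0.63, and Aph1b, a subunit of the gamma-secretase that cuts it, by 0.83. Arhgdia, which encodes a GTPase dissociation inhibitor that the receptor displaces, changed by -0.58 (SE 0.14, edgeR adjusted p = 0.0123). Markers of neurons and glia were near their floor in both populations. Of 10 neuronal markers 7 were in the table, and they summed to 0.407 to 2.46 CPM in macula densa and 0.845 to 5.69 CPM in control cells. For 3 Schwann cell markers the sums were 1.53 to 2.30 and 0.940 to 2.10 CPM.

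The other receptors of the TNF receptor family lay mostly below control cells. Ngfr was picked as higher in macula densa, so its opposite direction was fixed by that choice. Of 21 genes 19 were in the table and 11 tested, of which 1 rose and 6 fell, a share of 63.6% against 21.3% of all genes, with a median log2 ratio of -1.30. Edar, the ectodysplasin receptor, rose by 3.08 (SE 0.82, edgeR adjusted p = 0.0193), at 0.103 to 2.77 CPM in macula densa and 0 to 0.420 CPM in control cells. Fas, a death receptor, changed by -3.28 (SE 0.64, edgeR adjusted p = 0.00429). Tnfrsf1b, at most 3 counts in macula densa, was at least 5.03-fold lower. Tnfrsf11a changed by -4.18 (SE 1.21), from 0 to 4 counts in macula densa libraries, so the size of its change is uncertain. Edar passed the filter on low counts only through macula densa, and Fas, Tnfrsf1b and Tnfrsf11a only through control cells. Their directions were thus in part set by the filter, and the share of 63.6% counts them. Tnfrsf10b, Tnfrsf1a and Ltbr changed by -1.30, -1.15 and -0.82. With totals alone 2 genes of the family were called higher and 5 lower. Leaving out macula densa replicate 2 on control diet left 2 calls in place of 7, and leaving out macula densa replicate 1 or replicate 2 on low salt with enalapril left 3 each. Markers of some other cells were also lower in macula densa. All 5 podocyte markers together summed to 4.43 to 138 CPM there against 38.6 to 1252 CPM in control cells. For 3 leukocyte markers the sums were 0.492 to 3.39 and 1.05 to 73.9 CPM. The 5 proximal tubule markers went the other way, at 26.8 to 115 against 8.19 to 57.1 CPM, with overlap. Their part in these differences was not tested.

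Of the NSG family and its known partners, 13 genes, 12 were in the table and 8 tested. No member rose with edgeR (0 genes, with 2 higher at an unadjusted p under 0.05), and 1 rose with DESeq2 and 1 with limma voom. With edgeR 4 fell: Grip1, L1cam, App and Cltb, by log2 ratios of 1.94, 1.06, 0.86 and 0.63 below control cells, a share of 50% called against 21.3% of all genes (13.9% lower). The Nsg2 paralog Nsg1 measured 0 to 0.164 CPM in macula densa and 0.207 to 1.60 CPM in control cells and was not tested. Caly was not analysed here. Leaving out macula densa replicate 2 on control diet left 1 call in this list. The 6 markers of collecting duct principal cells summed to 10.7 to 35.4 CPM in macula densa and 99.3 to 796 CPM in control cells, and the part of these and of the podocyte and endothelial markers in the falls was not tested.

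Among 36 genes of proteins with CUB domains, the domain of Pamr1, 30 were in the table and 17 tested. With edgeR 4 rose and 5 fell, a share of 52.9% called against 21.3% of all genes (7.48% higher and 13.9% lower), with a median log2 ratio of -0.07. Pdgfc, a growth factor of the PDGF family, rose most, by 2.27 (SE 0.25), at 6.70 to 9.02 CPM in macula densa and 1.02 to 2.45 CPM in control cells. Cdcp1, Lrp12 and Pdgfd rose by 0.97, 0.81 and 0.66. The complement protease genes C1ra and C1s1, the procollagen proteinase gene Bmp1, and the receptor genes Nrp2 and Dcbld1 changed by -3.60, -2.44, -2.43, -4.42 and -1.83. C1ra was at the lowest log2 CPM, -2.13, in macula densa replicate 2 on either diet. C1s1 was at that value in replicate 2 on control diet and Nrp2 in replicate 2 on low salt with enalapril. The sizes of the changes of C1ra, C1s1 and Nrp2 are therefore uncertain. At least C1ra passed the filter on low counts only through control cells, which in part set its direction. Leaving out macula densa replicate 2 on either diet left 5 calls in place of 9. The lower sums of podocyte, endothelial and leukocyte markers in macula densa run beside these falls too, and their part was not tested.

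**Figure D5:**
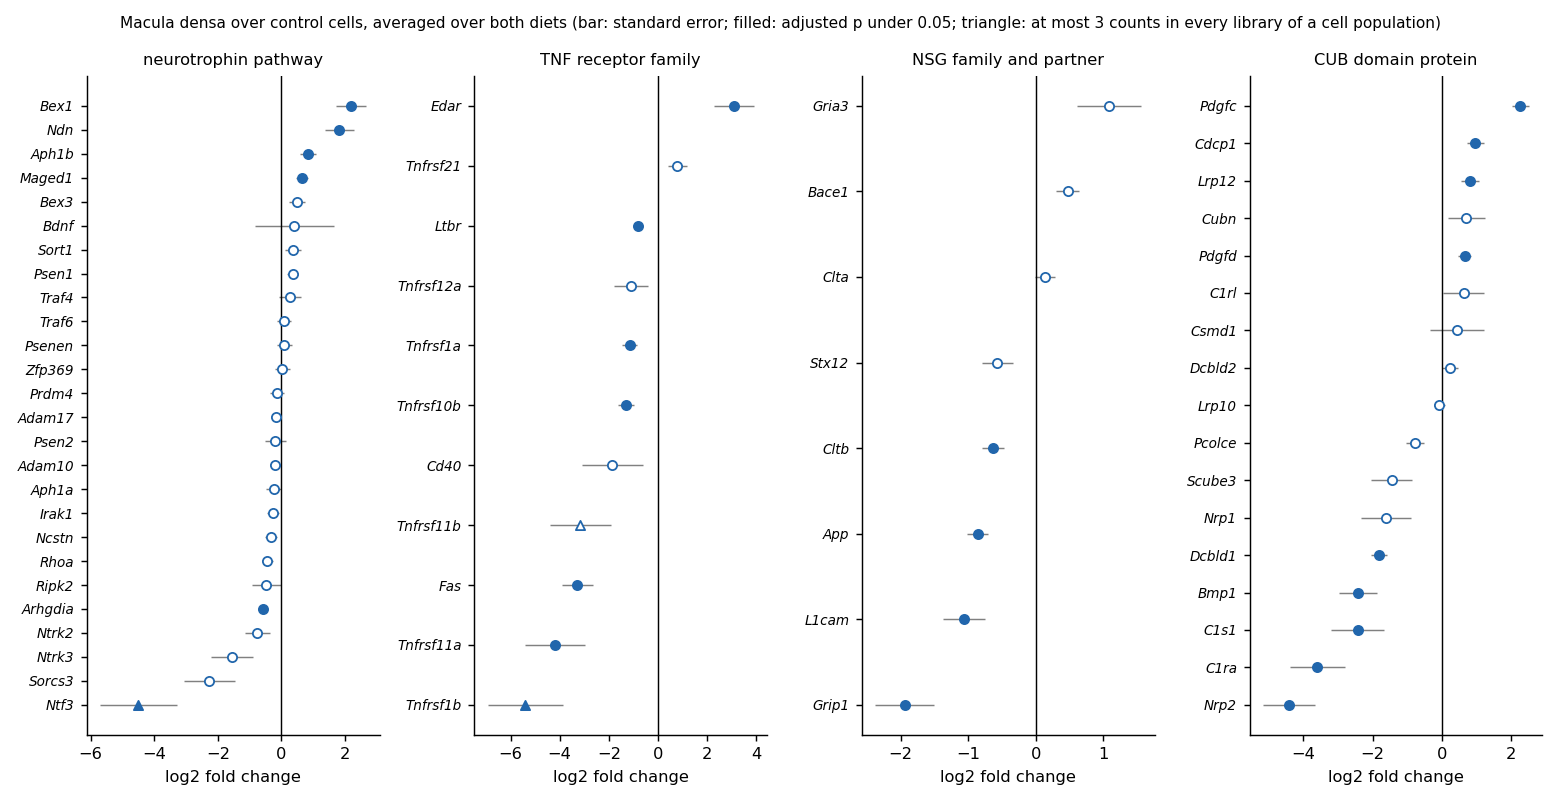
Log2 fold change of macula densa over control cells averaged over the diets (points; bars are standard errors) for the tested genes of 4 lists around Ngfr, Nsg2 and Pamr1. Filled symbols had an edgeR adjusted p under 0.05 and triangles mark genes at 3 counts or fewer in every library of a cell population; in the TNF receptor panel 1 gene is filled on the right of 0 and 6 on the left.

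The genes beside the 4 on the chromosome, 3 on either side in the table, were called at about the rate of all genes: 3 of the 19 tested, against 21.3% of all genes. Pamr1 had 5 tested neighbours, of which edgeR called 0 and 0 had an unadjusted p under 0.05. The nearest, Slc1a2 at 15.6 kb, measured 3.11 CPM in macula densa and 1.34 CPM in control cells on average (log2 ratio 1.14, SE 0.59, edgeR adjusted p = 0.197). Aard likewise had 5 tested neighbours and 0 calls with edgeR, with 1 at an unadjusted p under 0.05. Its nearest neighbour, the pseudogene Gm19236 at 4.04 kb, held 0 to 0.383 CPM in macula densa and was not tested. Around Nsg2 1 of 4 tested genes was called higher (Bod1, log2 ratio 0.77, edgeR adjusted p = 0.0424) and 1 lower (Rhbdf1, -0.83, edgeR adjusted p = 0.0357). Around Ngfr 1 of 5 was called, Nxph3, which encodes a secreted ligand of neurexins: it held 0 counts in every macula densa library. In control cells it averaged 2.33 CPM and ranged from 0 to 4.48 CPM. There replicate 4 on control diet held 0 counts and replicate 3 on low salt with enalapril 2. On that average it was at least 5.75-fold lower in macula densa (edgeR adjusted p = 0.0149). It passed the filter on low counts only through control cells, which in part set that direction.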

How the data were processed

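Estimated counts per gene for 12 libraries were deposited by the authors in 1 table. Per the submitters' processing notes, STAR 2.61, Partek and the build mm10 were used; their roles and the counting settings are not given in the sources used here. The library kit keeps strand, but counting by strand is not stated. Of the values, 16.1% were not whole, and counts were rounded. Every column had a sample (0 columns without one). For 23351 of 23378 genes, symbol, start and end matched GENCODE M21 on GRCm38.

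Groups came from the labels. Genes were kept with filterByExpr of edgeR 4.0.16 in R 4.3.3 (count minimum 10, total minimum 15), which left 14180. Libraries were scaled by TMM, and 1 quasi-likelihood fit with a coefficient per group covered all 12, with Benjamini-Hochberg adjustment over all genes tested and a threshold of 0.05. CPM are relative to the scaled totals, log2 CPM used a prior count of 2, and intervals are 95%. The script was tested on simulated counts. The 4 genes and the lists were chosen with earlier results of these data known. Text names the 4 genes, list members past the threshold (at most 5 per direction), direct ligands, receptors and paralogs, the nearest neighbours and the 5 most similar genes. Neighbours past the threshold outside that rule, Bod1 and Rhbdf1, were named after their values were seen.

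Alternatives were DESeq2 1.42.0 size factors and Wald test, limma 3.58.1 voom with sample weights, totals alone, totals without Gm42418, Mir6236 and mitochondrial genes, no filter, a mean of at least 5 CPM, the compared groups alone, blocks for label numbers and leaving out each library. The block by description number, levels relative to Nos1 and Slc12a1, the relations across control-cell libraries and the recounts of lists were added after the data were seen. Protein sequences were not used here. Some list members covered by the naming rule are not reported here.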

Additional observations from a re-analysis of the deposited data

Results flagged for a closer look

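The check covered 88 sets of 4 control-cell libraries of 1 gene on 1 diet, from 45 genes. In 10 sets a single library lay far from the other 3 on the log2 CPM scale. Chance gives about 1 in 20 (5%) for independent sets of normally distributed values. These sets share libraries, and some hold ties at 0 counts, so the 10 cannot be set against that rate. Ngfr in control cells on low salt with enalapril had -0.62 in replicate 3, from 2 counts, against -2.13 in the others, which held 0 counts. Replicate 4 on control diet stood low for 5 genes. Its value was 0.34 for Ntrk3 against 3.60 to 4.16, 4.97 for Arhgdia against 5.34 to 5.35, and 0.077 for Fas against 2.92 to 3.28. For Tnfrsf11a it was -1.59 against 0.79 to 1.03, and for Bmp1 -0.24 against 2.58 to 2.79. Podocyte markers in the control-cell libraries on control diet had their lowest sum, 38.6 CPM, in this same replicate 4, and their highest at 1252 CPM. Podxl measured 21.8 CPM in replicate 4 against 352 to 642 CPM in the others, and the endothelial marker Kdr 8.16 against 250 to 507 CPM. The part of the cell mix in the 5 low values was not tested. Replicate 2 on low salt with enalapril, the library with the smallest total (4259020 counts), had -2.13 for Edar, at 0 counts, against -0.71 to -0.62, and 0.27 for Grip1 against 1.36 to 1.51. It had 0.76 for the pseudogene Gm10020, a neighbour of Aard, from 6 counts, against -2.13 in the others at 0 counts. Replicate 3 on low salt with enalapril had 5.46 for Arhgdia against 5.35 in the others.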

How the results depend on the processing

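Directions of the diet changes of Pamr1, Aard, Nsg2 and Ngfr in macula densa cells held under every alternative that gave a value; the filter at a mean of 5 CPM left none for Aard and Ngfr. Aard passed with DESeq2 (3.61), limma voom (3.75) and the compared groups alone (3.62). The count of genes called for diet in macula densa was 0 with edgeR, 93 with DESeq2, 4 with limma voom, 105 with the compared groups alone and 0 to 1 when a library was left out. In control cells it was 1, with 74 by DESeq2, 0 with the compared groups alone, 0 with the replicate block by title number and 1 to 5 when a library was left out (5 without control-cell replicate 4 on low salt with enalapril). The difference of the diet effects gave 0 genes with edgeR and 13 with DESeq2. Macula densa against control cells gave 3027 genes, 1874 with a mean of at least 5 CPM, 1908 with the replicate block by title number and 1680 to 3968 when a library was left out (1680 without macula densa replicate 2 on control diet, 1857 without its replicate 2 on low salt). Limma voom split its calls into 1404 higher and 1249 lower.

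Libraries with the same title number correlated at -0.377 to 0.278 (2 of 14 pairs over 0.1) and those with the same description number at -0.0371 to 0.227 (1 of 4 pairs), which does not show that the numbers pair the samples. With 2 macula densa libraries a group, whose deviations mirror each other, it cannot show that they do not. With the replicate block by title number Aard had 3.67 (edgeR adjusted p = 0.468). With the replicate block by description number over 8 libraries, the difference of the diet effects for Pamr1 turned from -0.32 to 0.29; the cause was not tested.

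Counts called in the lists were 6 for the neurotrophin pathway (3 at 5 CPM, 1 with the block, 3 to 8 when a library was left out, with 3 without macula densa replicate 2 on control diet or control-cell replicate 2 on either diet). They were 7 for TNF receptors (2 at 5 CPM, 4 with limma voom, 4 with the block, 2 to 8), 4 for NSG genes (2 with the block, 1 to 5) and 9 for CUB genes (3 at 5 CPM, 5 to 10). Fewer genes are tested at 5 CPM.

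Totals without Gm42418, Mir6236 and mitochondrial genes raised mean CPM by construction, in macula densa on control diet and on low salt with enalapril to 331 and 427 for Pamr1, 8.59 and 101 for Aard, 93.2 and 70.2 for Nsg2 and 3.02 and 13.0 for Ngfr. In control cells they gave 10.5 and 17.7 for Pamr1, 3.03 and 6.11 for Nsg2 and 0.651 and 0.469 for Ngfr. Library totals alone gave Nsg2 24.1 and 17.6 CPM in macula densa. With a prior count of 0.5 the 5 most similar genes shared 4 with the list given for Pamr1, 3 for Aard, 3 for Nsg2 and 2 for Ngfr. Depth limits Ngfr and the neurotrophin ligands, since 3 counts were worth up to 0.734 CPM, and 2 macula densa libraries per diet limit the diet comparison.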
